A study of Mus musculus with 15 samples.

Results

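The 56 genes described here form the interferon response and antigen presentation genes of mouse granulosa cells, the somatic cells that surround the oocyte in the ovarian follicle. They were taken by gene symbol from a list of known interferon and antigen presentation genes, drawn up with earlier results of these data known, out of 24490 genes in the count files, and all 56 symbols were found. They were sorted by role into 5 signal factors, 12 genes of nucleic acid sensing (sensors), 24 antiviral effectors, 6 GTPases induced by interferon and 9 antigen presentation genes. The sensor group was drawn broadly and also holds the ubiquitin ligase gene Trim25 and the RNA editing enzyme gene Adar. The study asked which genes depend on the transcription factor FOXL2, which maintains granulosa cell identity, and on ESR2, the oestrogen receptor beta. Primary granulosa cells of 8-week-old female RjOrl:SWISS mice were transfected in culture with 30 pmol of siRNA by a lipid reagent, and poly(A) RNA was sequenced. The 15 libraries form 5 groups of 3: Foxl2 siRNA at 54 h, Foxl2 siRNA at 30 h, Esr2 siRNA at 30 h, scrambled siRNA at 54 h and scrambled siRNA at 30 h. All groups, the scrambled ones included, thus carried transfected siRNA, and no untransfected cells were sampled here. The labels name 4 pools of 3 siRNAs for each target but not which pool went into which library, and they list the same catalogue numbers for both targets. The times are those of the sample titles, since the extraction protocol names 30 h alone. No label ties the 3 replicates of a group to separate animals or cultures, so p-values measure only how far these samples spread, possibly for technical reasons.

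Type I interferons bind a receptor whose kinases, JAK1 and TYK2, activate transcription factors, STAT2 among them. A complex that contains STAT2 and IRF9 binds the interferon-stimulated response element and switches on antiviral genes, many of which encode the sensors and signal factors themselves, so that the response feeds back on itself. Interferon gamma acts on a different element and is a strong inducer of the guanylate-binding and immunity-related GTPases and of the class I antigen presentation genes. Class I presentation cuts cytosolic proteins in the proteasome, carries the peptides through the TAP transporter and loads them, with the help of tapasin, onto class I heavy chains paired with beta-2-microglobulin.

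The promoters of 5 members are printed to show where the core of the interferon-stimulated response element lies in an effector pair, a GTPase and an antigen presentation gene, and in a promoter without it. Each runs from 250 bases before to 50 bases after the gene's start in the RefSeq promoter table (build GRCm38.p6) and is written 5′ to 3′ on the strand of the gene. Capitals mark the core that was searched, which is GAAA, then 2 bases of any kind, then GAAA, on either strand. The intervals are chr4:156200769-156201068 (minus strand) for Isg15, chr19:34640639-34640938 (plus strand) for Ifit1, chr3:142620413-142620712 (plus strand) for Gbp2, chr2:122147437-122147736 (plus strand) for B2m and chr17:33919228-33919527 (plus strand) for Tapbp.
Isg15: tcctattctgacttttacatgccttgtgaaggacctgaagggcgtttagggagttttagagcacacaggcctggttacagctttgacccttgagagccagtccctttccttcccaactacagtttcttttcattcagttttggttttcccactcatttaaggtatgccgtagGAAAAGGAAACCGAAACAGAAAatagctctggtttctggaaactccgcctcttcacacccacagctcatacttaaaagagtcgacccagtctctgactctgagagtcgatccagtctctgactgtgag
Ifit1: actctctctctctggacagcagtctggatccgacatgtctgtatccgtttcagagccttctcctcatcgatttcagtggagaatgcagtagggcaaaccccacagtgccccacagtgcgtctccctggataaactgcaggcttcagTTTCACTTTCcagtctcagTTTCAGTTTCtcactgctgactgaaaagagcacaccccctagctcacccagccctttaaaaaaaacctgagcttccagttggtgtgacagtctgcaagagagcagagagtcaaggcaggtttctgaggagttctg
Gbp2: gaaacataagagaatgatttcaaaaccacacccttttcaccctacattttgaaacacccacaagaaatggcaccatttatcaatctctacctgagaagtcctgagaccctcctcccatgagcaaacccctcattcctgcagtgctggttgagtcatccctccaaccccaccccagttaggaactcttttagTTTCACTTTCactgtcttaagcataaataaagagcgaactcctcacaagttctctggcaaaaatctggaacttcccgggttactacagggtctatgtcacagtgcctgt
B2m: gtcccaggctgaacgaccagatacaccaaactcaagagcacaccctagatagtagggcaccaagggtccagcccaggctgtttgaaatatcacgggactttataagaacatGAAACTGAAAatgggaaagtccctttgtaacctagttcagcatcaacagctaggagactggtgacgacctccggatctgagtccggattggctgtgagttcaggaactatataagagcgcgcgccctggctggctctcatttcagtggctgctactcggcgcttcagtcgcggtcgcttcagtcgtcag
Tapbp: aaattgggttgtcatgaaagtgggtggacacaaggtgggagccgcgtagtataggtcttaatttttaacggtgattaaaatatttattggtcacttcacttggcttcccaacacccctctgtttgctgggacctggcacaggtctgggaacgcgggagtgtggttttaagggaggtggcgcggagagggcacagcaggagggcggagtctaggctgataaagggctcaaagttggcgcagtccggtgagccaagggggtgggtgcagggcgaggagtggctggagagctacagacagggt
Isg15 held 3 overlapping copies from 78 to 57 bases before the start, Ifit1 held 2 between 104 and 76 bases before it, Gbp2 held 1 from 59 to 50 and B2m 1 from 139 to 130, while Tapbp held none. Of the 56 members, 45 had a promoter in the table, and 21 of these (46.7%) held the core, against 1079 of 27025 genes in the table (3.99%). The core was present in the promoters of 6 of 6 GTPases, 5 of 9 sensors, 8 of 19 effectors and 1 of 4 signal factors, but in 1 of 7 antigen presentation genes, B2m. Of its 32 copies, 24 began before the gene's start and 22 within 150 bases before it. The gamma-activated core TTCNNNGAA, which reads the same on both strands, was found in 13 of 45 member promoters (28.9%) and in 9.55% of all promoters. It overlapped a copy of the first core in Bst2 and Ifitm3. A match of letters is a description of the window and not a site of binding.

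The summed gene counts of a library ranged from 44976872 to 59550065. Levels are TMM-normalised CPM, that is counts scaled to a library of equal size, and 3 counts, the limit that a count of 0 allows, correspond to 0.0504 to 0.0667 CPM for counting error alone. Each siRNA lowered its own target. Foxl2 stood at 33.7, 57.5 and 25.2 CPM after Foxl2 siRNA at 54 h and at 33.8, 28.4 and 65.4 CPM at 30 h, against 154 to 189 CPM at 54 h and 143 to 174 CPM at 30 h with scrambled siRNA. Esr2 stood at 12.9, 14.5 and 13.9 CPM after Esr2 siRNA, against 60.4 to 61.6 CPM with scrambled siRNA. Esr2 also fell after Foxl2 siRNA at 54 h, to 18, 49.3 and 15.7 CPM, against 64.9 to 74.2 CPM with scrambled siRNA (log2 -1.31 ± 0.34, edgeR adjusted p = 0.00854). Calls rest on edgeR's quasi-likelihood test over 14907 genes, 55 members among them, with the threshold at an adjusted p of 0.05. Zbp1, a sensor of Z-form nucleic acid, was too low to be tested, with 0.135 to 0.347 CPM after Foxl2 siRNA at 54 h and 0.0331 to 0.256 CPM in the other 12 libraries.

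Granulosa cells expressed most of this gene set without any added interferon. Per kilobase of exon, with scrambled siRNA at 30 h, the highest members were Bst2, which tethers budding virus to the cell, at 245 CPM per kb, B2m at 242, Ifitm3, which blocks virus entry, at 60.5, and Irgm1, a vacuole-directed GTPase, at 40.3. The lowest tested members were Sp100 at 0.143, Mx1 at 0.173 and Oas2 at 0.193 CPM per kb. The antigen presentation genes other than B2m ranged from H2-K1 at 39.8, Tapbp at 38.1 and Tap2 at 36.6 CPM per kb down to Tap1 at 10.3, Psmb9 at 3.10 and the transactivator Nlrc5 at 0.492. None of 11 interferon ligand genes, Ifnb1 and Ifng included, was high enough to be tested. Their summed level was 0.022 to 0.0578 CPM after Foxl2 siRNA at 54 h, 0 to 0.0202 CPM at 30 h, 0.0166 to 0.0782 CPM after Esr2 siRNA, and 0.0379 to 0.0733 and 0 to 0.115 CPM with scrambled siRNA at 54 h and 30 h.

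**Figure D1:**
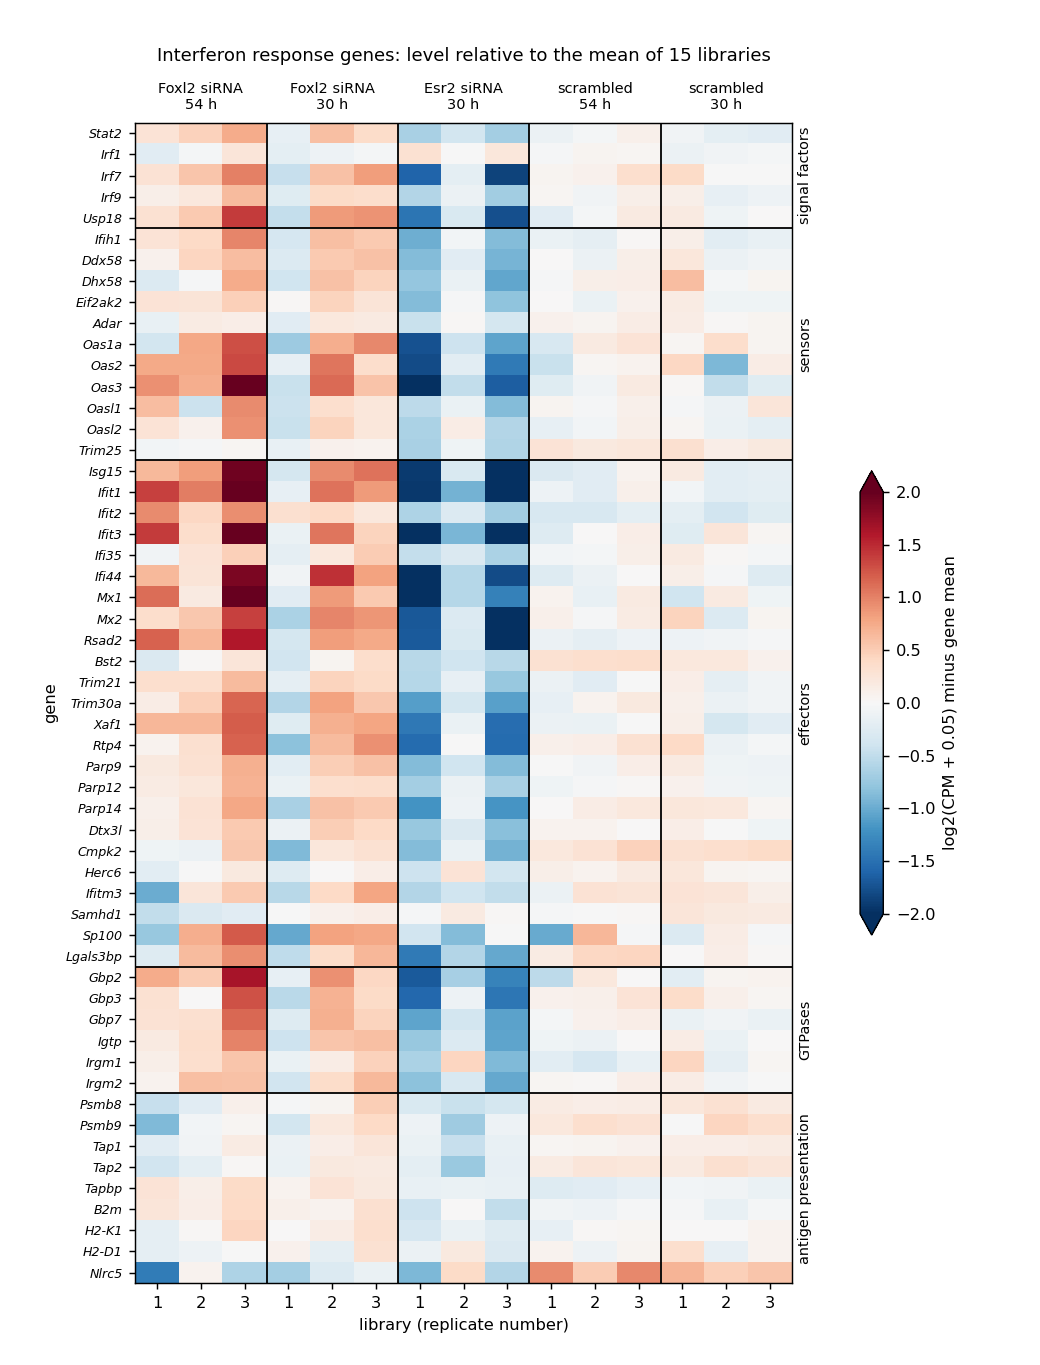
Level of each of the 55 tested genes (rows, grouped by role) in each of the 15 libraries (columns, 3 replicates a group), as log2(CPM + 0.05) minus the gene's mean over the 15 libraries; colours end at 2 and -2. Foxl2 siRNA replicate 3 at 54 h is reddest, Esr2 siRNA replicates 1 and 3 are bluest, and Foxl2 siRNA replicate 1 at 30 h is pale to blue where replicates 2 and 3 are red.

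After Foxl2 siRNA for 54 h, 8 of 24 antiviral effectors rose over scrambled siRNA, the Ifit genes, Isg15 and Rsad2 among them, while the antigen presentation genes split. Of 55 tested members, 13 rose and 3 fell, against 18.5% of all genes tested higher and 20.3% lower (38.8% called in all). The members' share called higher was 23.6%, near the share of all genes, and the share called lower was 5.45%. Their median log2 change was 0.43, against -0.01 for all genes tested, and 41 of 55 had a positive change (7271 of 14907 for all genes tested). By role, 8 of 24 effectors rose and 1 fell, 1 of 11 sensors, 1 of 5 signal factors and 1 of 6 GTPases rose, and 2 of 9 antigen presentation genes rose and 2 fell. The median log2 change was 0.50 for effectors, 0.44 for sensors, 0.49 for signal factors, 0.58 for GTPases and -0.10 for antigen presentation genes. In bulk RNA, a change in the share of a cell type and a change in RNA per cell cannot be told apart.

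The largest effector change was that of Ifit1, whose protein binds viral RNA lacking the host cap. Ifit1 (chromosome 19, 34640871 to 34650009, plus strand, mm10) had 44.9, 35.4 and 78.3 CPM after Foxl2 siRNA, against 16.1, 14.7 and 18.5 CPM with scrambled siRNA. All 3 siRNA libraries lay above all scrambled ones, and Ifit1 rose 3.22-fold (log2 1.69 ± 0.41 SE, edgeR adjusted p = 0.00563). Its neighbour Ifit2 had 40.7, 28.3 and 40.3 CPM against 16.9, 16.9 and 18.5 CPM, a rise of 2.09-fold with little spread (log2 1.06 ± 0.14, edgeR adjusted p = 8.67e-05). Ifit3 had 29, 14.1 and 46.9 CPM after Foxl2 siRNA and 9.21, 11.1 and 12.1 CPM with scrambled siRNA (log2 1.47 ± 0.42, edgeR adjusted p = 0.0145). Its replicate 2 came close to the scrambled range, so the size of the Ifit3 change rests on replicates 1 and 3. Ifit3 has a near-identical copy, Ifit3b, with which reads could be shared.

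Isg15, a ubiquitin-like protein that is attached to other proteins, had 43.5, 49.8 and 107 CPM after Foxl2 siRNA and 22.7, 23.9 and 29.3 CPM with scrambled siRNA. It rose 2.64-fold (log2 1.40 ± 0.49, edgeR adjusted p = 0.0375), with replicate 3 far above the other 2. Rsad2, which encodes viperin, an enzyme that makes a chain-terminating nucleotide, had 38.7, 27 and 52 CPM against 15.7, 15.1 and 15.8 CPM (log2 1.33 ± 0.40, edgeR adjusted p = 0.0183). Mx1, a dynamin-like GTPase, was low throughout, with 1.56, 0.792 and 2.95 CPM after Foxl2 siRNA against 0.733, 0.626 and 0.796 CPM. Its groups overlapped, and its call was close to the threshold (log2 1.29 ± 0.48, edgeR adjusted p = 0.0467). Trim21, a ubiquitin ligase that binds antibody in the cytosol, had 18.4, 18.3 and 22.6 CPM against 13.4, 12.4 and 14.4 CPM (log2 0.56 ± 0.17, edgeR adjusted p = 0.0216). Xaf1, which binds the apoptosis inhibitor XIAP, averaged 38.5 ± 8.8 CPM after Foxl2 siRNA and 19.8 ± 0.94 CPM with scrambled siRNA (SD, n = 3 each), and it also rose (log2 0.96 ± 0.34, edgeR adjusted p = 0.0401). Ifi44 missed the threshold narrowly (log2 1.24 ± 0.46, edgeR adjusted p = 0.0501).

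Samhd1, which breaks down the nucleotides needed for reverse transcription, was the effector that fell. It had 77.3, 88.3 and 92.9 CPM after Foxl2 siRNA and 107, 108 and 110 CPM with scrambled siRNA, 1.26-fold lower without overlap (log2 -0.33 ± 0.07, edgeR adjusted p = 0.0026). Bst2, the most abundant member per kilobase, had 161, 200 and 231 CPM after Foxl2 siRNA, all below 242, 246 and 251 CPM with scrambled siRNA, but did not pass (log2 -0.32 ± 0.15, edgeR adjusted p = 0.117). Samhd1 and Bst2 thus had negative changes where Isg15 and the Ifit genes had positive ones.

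Among the signal factors, Stat2 had 57.3, 65.5 and 79.2 CPM after Foxl2 siRNA and 43.6, 46.1 and 50.9 CPM with scrambled siRNA, and it rose 1.44-fold (log2 0.52 ± 0.16, edgeR adjusted p = 0.023). Irf9, its DNA-binding partner, had 47.8, 51.1 and 68.2 CPM against 45.1, 42.1 and 47.9 CPM and did not pass (log2 0.31 ± 0.18, edgeR adjusted p = 0.207). Irf7, which drives transcription of interferon genes, had 26.7, 32.3 and 44.1 CPM against 22.7, 23.3 and 27.6 CPM (log2 0.49 ± 0.39, edgeR adjusted p = 0.349). Usp18, which removes ISG15 from proteins and dampens the receptor, had 27.6, 32.1 and 58.9 CPM against 19.1, 21.7 and 25.2 CPM, without overlap but short of the threshold (log2 0.85 ± 0.40, edgeR adjusted p = 0.115). Irf1, the factor typical of the gamma response, had 12.9, 14.7 and 18 CPM against 14.9, 15.7 and 15.6 CPM (log2 -0.02 ± 0.11, edgeR adjusted p = 0.896). In Irf7, Irf9 and Usp18, replicate 3 was the highest siRNA library and the scrambled libraries varied little. Irf9 shares exon bases with Rnf31, and Irf7 and Irf1 overlap genes on the opposite strand, so their counts could include reads of those genes.

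Oas3, a synthetase of the oligoadenylates that activate RNase L, was the only sensor called. It had 4.03, 3.54 and 9.09 CPM after Foxl2 siRNA and 1.78, 2.01 and 2.42 CPM with scrambled siRNA (log2 1.42 ± 0.46, edgeR adjusted p = 0.026). Its relative Oas2 had 1.5, 1.5 and 2.23 CPM against 0.623, 0.892 and 0.917 CPM and did not pass (log2 1.10 ± 0.45, edgeR adjusted p = 0.0666). Ifih1, which encodes the long-RNA sensor MDA5, had 23.8, 25.8 and 38.7 CPM against 17.9, 17.3 and 19.9 CPM (log2 0.68 ± 0.27, edgeR adjusted p = 0.0633). Both lay above the scrambled libraries in all 3 replicates without reaching the threshold. Ddx58, which encodes RIG-I, had 88.2, 112 and 128 CPM against 84.2, 77 and 90.9 CPM and overlapped (log2 0.38 ± 0.23, edgeR adjusted p = 0.207).

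Of the GTPases, Gbp2 had 21.7, 18.4 and 40.7 CPM after Foxl2 siRNA and 9.05, 15 and 13.1 CPM with scrambled siRNA, a rise of 2.18-fold (log2 1.12 ± 0.34, edgeR adjusted p = 0.02). Irgm1 had 235, 272 and 317 CPM against 187, 171 and 194 CPM (log2 0.58 ± 0.28, edgeR adjusted p = 0.121). All 6 GTPases had positive changes, from 0.38 to 1.12 on the log2 scale, and Gbp2 alone passed. The Gbp genes resemble one another closely, and Igtp and Irgm2 share exons on the same strand, so reads could be split between them.

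The antigen presentation genes moved in both directions. Tapbp, which encodes the loading chaperone tapasin, had 178, 159 and 192 CPM after Foxl2 siRNA and 123, 126 and 131 CPM with scrambled siRNA (log2 0.48 ± 0.07, edgeR adjusted p = 0.000223). B2m, the shared light chain, had 260, 241 and 289 CPM against 209, 205 and 215 CPM (log2 0.32 ± 0.11, edgeR adjusted p = 0.0391). Both rose without overlap, by 1.39-fold and 1.25-fold. Nlrc5, the transactivator of class I genes, fell 2.58-fold, with 1.03, 2.92 and 1.81 CPM against 5.44, 4 and 5.5 CPM (log2 -1.37 ± 0.36, edgeR adjusted p = 0.00904). Tap2, a peptide transporter subunit, fell less, averaging 103 ± 14.1 CPM after Foxl2 siRNA and 135 ± 4.42 CPM with scrambled siRNA (SD, n = 3 each; log2 -0.39 ± 0.14, edgeR adjusted p = 0.0459). Psmb8, an immunoproteasome subunit, had 31.8, 37.4 and 47.2 CPM against 49, 47.9 and 48.7 CPM, all below but short of the threshold (log2 -0.32 ± 0.14, edgeR adjusted p = 0.0805). The other transporter subunit, Tap1, had 43.9, 49 and 57.3 CPM against 52.6, 53.4 and 54.2 CPM (log2 -0.09 ± 0.11, edgeR adjusted p = 0.543).

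The class I heavy chains did not pass the test, and their groups overlapped. H2-K1 had 101, 116 and 155 CPM after Foxl2 siRNA against 102, 117 and 118 CPM (log2 0.14 ± 0.13, edgeR adjusted p = 0.413), and H2-D1 had 46.9, 49.4 and 52.6 CPM against 55.5, 49.4 and 55.1 CPM (log2 -0.10 ± 0.15, edgeR adjusted p = 0.614). These are members of a family of close copies, so reads could be split between them. Tapbp shares exon bases with Zbtb22 on the same strand, and Psmb9 and Tap1 overlap on opposite strands.

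**Figure D2:**
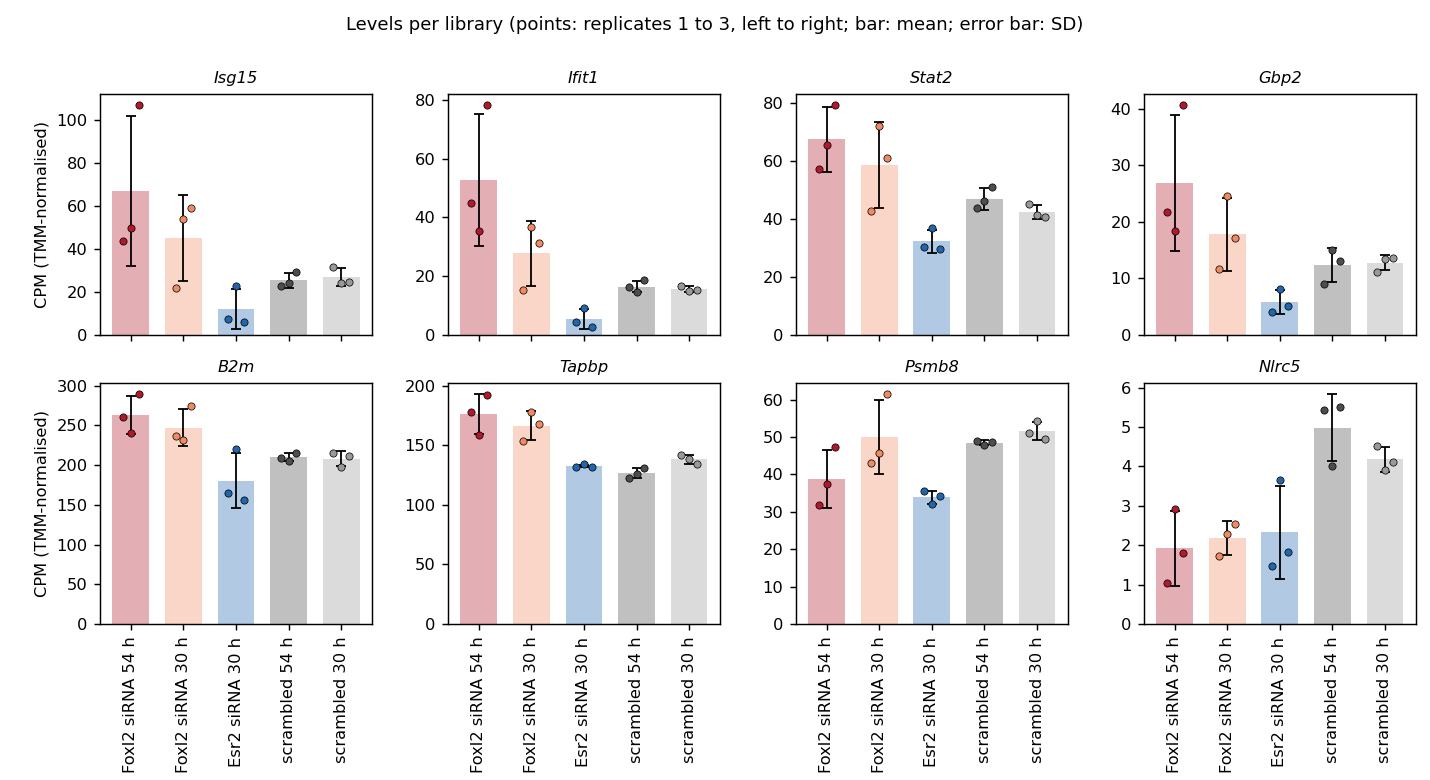
TMM-normalised CPM of 8 members in the 5 groups; bars are means, error bars SD of 3 libraries, and points are replicates 1 to 3 from left to right. Isg15, Ifit1, Stat2 and Gbp2 are highest in Foxl2 siRNA replicate 3 at 54 h, whereas Nlrc5 lies below the scrambled libraries in every siRNA library and Psmb8 below them in all 3 Esr2 siRNA libraries.

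Over the 55 tested members, 24 had all Foxl2 siRNA libraries above all scrambled ones at 54 h (43.6%, against 23.5% of all genes tested) and 7 all below (12.7%, against 27.9%). Replicate 3 was the highest of the 3 Foxl2 siRNA libraries in 51 of 55 members, against 28.6% of all genes. Without it 3 members rose (Ifit1, Ifit2 and Tapbp) and 4 fell, and 3, 6 and 7 rose without scrambled replicate 1, 2 or 3. Genes to test were chosen anew with each library left out, so these counts can include Zbp1, untested in the full fit. The calls thus depended on more than 1 library. Calls lost were 4, 1 and 10 without Foxl2 siRNA replicate 1, 2 or 3, and 11, 9 and 7 without scrambled replicate 1, 2 or 3. Ifit1, Ifit2, Samhd1, Tapbp and Nlrc5 were called under each of the 13 alternatives, while Tap2 and Mx1 were lost under 7 each. With limma's voom and quality weights 23 rose and 6 fell. Over the left-out libraries, 2113 to 3257 of all genes rose and 2242 to 3495 fell, against 2755 and 3032 in the full fit. Set against the scrambled libraries 1 by 1, Foxl2 siRNA replicates 1 to 3 had 28, 36 and 46 members above all 3 of them, and 20, 14 and 7 below. Of all genes tested, 40.7, 37.6 and 40.8% lay above in replicates 1 to 3, and 44.7, 42.1 and 44.3% below.

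Genes upstream of the members, from a list of receptors, kinases and feedback genes, moved in both directions. At 54 h, Socs1, a feedback inhibitor of the kinases, rose, with 3.52, 2.02 and 4.12 CPM after Foxl2 siRNA against 1.57, 1.69 and 1.56 CPM with scrambled siRNA (edgeR adjusted p = 0.00509), and Il10rb, a receptor chain for lambda interferon, also rose (log2 0.64 ± 0.07, edgeR adjusted p = 2.57e-05). The receptor chain Ifnar1 fell (log2 -0.24 ± 0.08, edgeR adjusted p = 0.0282), as did the kinase Jak1 (log2 -0.21 ± 0.07, edgeR adjusted p = 0.0306). Of 14 tested genes that lead from sensing to interferon production, 2 rose and 3 fell (35.7% called, near the 38.8% of all genes tested). Irf5 (log2 1.04 ± 0.22, edgeR adjusted p = 0.00226) and Ticam1 (log2 0.35 ± 0.11, edgeR adjusted p = 0.0205) rose. Traf3 (log2 -0.90 ± 0.18, edgeR adjusted p = 0.00185), the DNA sensor Mb21d1 (log2 -0.55 ± 0.18, edgeR adjusted p = 0.0305) and Ikbke (log2 -0.30 ± 0.11, edgeR adjusted p = 0.0464) fell.

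Of 11 other class I pathway genes tested at 54 h, 1 rose and 3 fell (36.4% called, near the 38.8% of all genes tested). The non-classical heavy chain H2-T23 rose (log2 0.33 ± 0.12, edgeR adjusted p = 0.0451). The chaperones Canx (log2 -0.25 ± 0.06, edgeR adjusted p = 0.00369) and Pdia3 (log2 -0.35 ± 0.07, edgeR adjusted p = 0.00157) and the heavy chain H2-M3 (log2 -0.59 ± 0.22, edgeR adjusted p = 0.0479) fell. Of 4 MHC class II genes tested out of 8 listed, H2-Ab1 fell (log2 -0.87 ± 0.24, edgeR adjusted p = 0.0111).

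Markers of leukocytes, surface epithelium and Sertoli cells differed between Foxl2 siRNA and scrambled siRNA at 54 h. Those of theca, stroma and endothelium mostly did not pass the test. Of all genes tested, 18.5% were called higher and 20.3% lower. Of 14 granulosa markers tested, 3 rose and 7 fell, the target Foxl2 among those that fell. The summed level of 15 leukocyte markers was 5.26 to 6.53 CPM after Foxl2 siRNA at 54 h and 3.6 to 3.79 CPM with scrambled siRNA. Of the 5 leukocyte markers tested, Csf1r and Itgam rose and Cd79a fell. Itgam and Cd79a were low throughout, with 105 and 179 counts in all 15 libraries together. Tyrobp was at 0 in all 15 libraries, and Ptprc, the pan-leukocyte gene, had 11 counts in all 15 together. The summed level of 9 ovarian surface epithelium markers was 1000 to 1080 CPM after Foxl2 siRNA and 412 to 483 CPM with scrambled siRNA, and 6 of the 9 rose, among them Msln (log2 2.62 ± 0.25, edgeR adjusted p = 1.02e-05) and Wt1, which granulosa cells express as well. Sertoli cell markers, of which 6 of 7 tested rose, summed to 104 to 245 CPM after Foxl2 siRNA and 34.2 to 39.5 CPM with scrambled siRNA. Of 6 theca and stroma markers tested, 0 rose and 1 fell, but their sum varied widely between replicates 1 to 3, with 273, 616 and 794 CPM after Foxl2 siRNA and 193, 626 and 418 CPM with scrambled siRNA. Of 5 endothelium markers tested none was called by edgeR, and none had an unadjusted p under 0.05. The part of other cell types in the interferon gene result was not tested.

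At 30 h after Foxl2 siRNA, Ifit2 and the tapasin gene Tapbp were the members that rose, and most others had positive changes that did not pass. Of 55 members 2 rose and 0 fell, against 6.34% of all genes tested higher and 6.65% lower (13% called in all), so the members' share called was below that of all genes. The members called were Ifit2, with a log2 change of 0.59 ± 0.14 (edgeR adjusted p = 0.0143), and Tapbp, with 0.27 ± 0.07 (edgeR adjusted p = 0.0239). The largest change was a fall that did not pass, that of Nlrc5 (log2 -0.94). Nlrc5 had 1.72, 2.29 and 2.54 CPM after Foxl2 siRNA, all below 4.51, 3.9 and 4.12 CPM with scrambled siRNA. The median log2 change was 0.25, against -0.01 for all genes tested, and 42 of 55 changes were positive (7230 of 14907 for all genes tested). By role the medians were 0.33 for effectors, 0.24 for sensors, 0.29 for signal factors, 0.28 for GTPases and -0.04 for antigen presentation genes. Both calls were lost without Foxl2 siRNA replicate 2 or without scrambled replicate 2 (edgeR adjusted p from 0.0563 to 0.0955), and voom turned the median to -0.037 with 6 members lower.

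The 3 Foxl2 siRNA libraries at 30 h did not behave alike. Replicate 1 was the lowest of the 3 in 52 of 55 members, against 27.3% of all genes tested, the exceptions being Ifit2, B2m and H2-D1. Set against the 3 scrambled libraries at 30 h, replicate 1 had 3 members above all of them and 39 below, whereas replicate 2 had 41 above and 8 below and replicate 3 had 44 above and 4 below. Of all genes tested, 35.6, 37.4 and 32% lay above in replicates 1 to 3, and 38, 41.1 and 33.9% below. The level of Foxl2 itself was 33.8, 28.4 and 65.4 CPM in replicates 1 to 3, so the low interferon gene levels of replicate 1 came with an intermediate Foxl2 level. The overlap counts show this spread: 3 members lay wholly above and 4 wholly below the scrambled libraries, against 15.3% and 17.7% of all genes tested.

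After Esr2 siRNA for 30 h, nearly the whole set had lower levels than with scrambled siRNA, though 4 genes passed the test. Of 55 tested members 54 had a negative log2 change (7636 of 14907 for all genes tested), and Irf1 had the positive one. The median was -0.67, against -0.01 for all genes tested. All 3 Esr2 siRNA libraries lay below all 3 scrambled ones in 39 members (70.9%, against 15.2% of all genes tested), and above them in Irf1. Few single genes passed the test: 4 fell and 0 rose by edgeR, against 3.11% of all genes tested lower and 1.13% higher (4.23% called in all). An unadjusted p under 0.05 was found in 40 of 55 members and in 2625 of 14907 genes tested. By role the medians were -0.77 for effectors, -0.70 for GTPases, -0.63 for sensors, -0.40 for signal factors and -0.39 for antigen presentation genes. The members that fell were the RIG-I ligase gene Trim25 among sensors, Bst2 among effectors, and Psmb8 and Tap2 among antigen presentation genes.

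The count of calls depended on the library and the tool. Without Esr2 siRNA replicate 2, 29 members fell, and without Esr2 siRNA replicate 1 or 3 the counts were 0 and 1. Without scrambled replicate 1, 2 or 3 they were 0, 1 and 1. Over the left-out libraries, 202 to 751 of all genes were lower, against 463 in the full fit. DESeq2 called 14 lower, voom with quality weights 50 lower and 1 higher (Irf1), and a fit of the 2 groups alone 15 lower. How many of all genes were called under these settings is not given here. Esr2 siRNA replicate 2 was the highest of its group in 49 of 55 members and the lowest in the other 6, against 39.3% and 39.9% of all genes tested. It lay above all scrambled libraries in 4 members and below them in 40, while replicates 1 and 3 each lay above in 1 and below in 53. Of all genes tested, 32.8, 32.4 and 32% lay above in replicates 1 to 3, and 35.1, 32.1 and 34.4% below. Esr2 stood at 12.9, 14.5 and 13.9 CPM in replicates 1 to 3. The scrambled libraries at 30 h are shared by this comparison and that of Foxl2 siRNA at 30 h.

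Trim25 had 115, 170 and 119 CPM after Esr2 siRNA, 162, 192 and 188 CPM after Foxl2 siRNA and 225, 197 and 205 CPM with scrambled siRNA. It fell 1.55-fold after Esr2 siRNA (log2 -0.63 ± 0.12, edgeR adjusted p = 0.0106). Bst2 had 133, 148 and 133 CPM after Esr2 siRNA, 150, 204 and 249 CPM after Foxl2 siRNA and 227, 227 and 208 CPM with scrambled siRNA, and it fell 1.6-fold after Esr2 siRNA (log2 -0.68 ± 0.15, edgeR adjusted p = 0.026). Psmb8 had 35.6, 32.1 and 34.1 CPM after Esr2 siRNA, 43, 45.6 and 61.4 CPM after Foxl2 siRNA and 51.1, 54.3 and 49.4 CPM with scrambled siRNA (log2 -0.60 ± 0.14 for Esr2 siRNA, edgeR adjusted p = 0.0266). Tap2 had 102, 69.5 and 104 CPM after Esr2 siRNA, 106, 133 and 132 CPM after Foxl2 siRNA and 132, 145 and 138 CPM with scrambled siRNA (log2 -0.59 ± 0.14 for Esr2 siRNA, edgeR adjusted p = 0.0333). None of these calls was kept in all alternatives. Psmb8 varied least within the Esr2 siRNA group, yet its call was lost whenever any library was left out.

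The 6 members that were lowest in Esr2 siRNA replicate 2 included Psmb9, Tap1, Psmb8 and Tap2, which lie next to each other on chromosome 17 between 34181987 and 34216321; the others were Irf1 and Sp100. These were picked out after their values were seen. Psmb9 had 8.81, 5.75 and 8.78 CPM after Esr2 siRNA and 9.4, 12.7 and 11.9 CPM with scrambled siRNA (log2 -0.54 ± 0.25, edgeR adjusted p = 0.281). Tap1 had 46.6, 37.2 and 46.2 CPM after Esr2 siRNA and 55.9, 56.4 and 57.6 CPM with scrambled siRNA (log2 -0.39 ± 0.11, edgeR adjusted p = 0.0727). Antigen presentation genes outside this cluster had the library order of the effectors: B2m had 165, 220 and 156 CPM after Esr2 siRNA and 215, 197 and 212 CPM with scrambled siRNA, and H2-K1 had 90.7, 105 and 95.9 CPM against 115, 115 and 120 CPM. H2-D1 had 49, 60.5 and 43.1 CPM against 67.1, 47 and 55.8 CPM, and Nlrc5 had 1.47, 3.66 and 1.84 CPM against 4.51, 3.9 and 4.12 CPM.

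**Figure D3:**
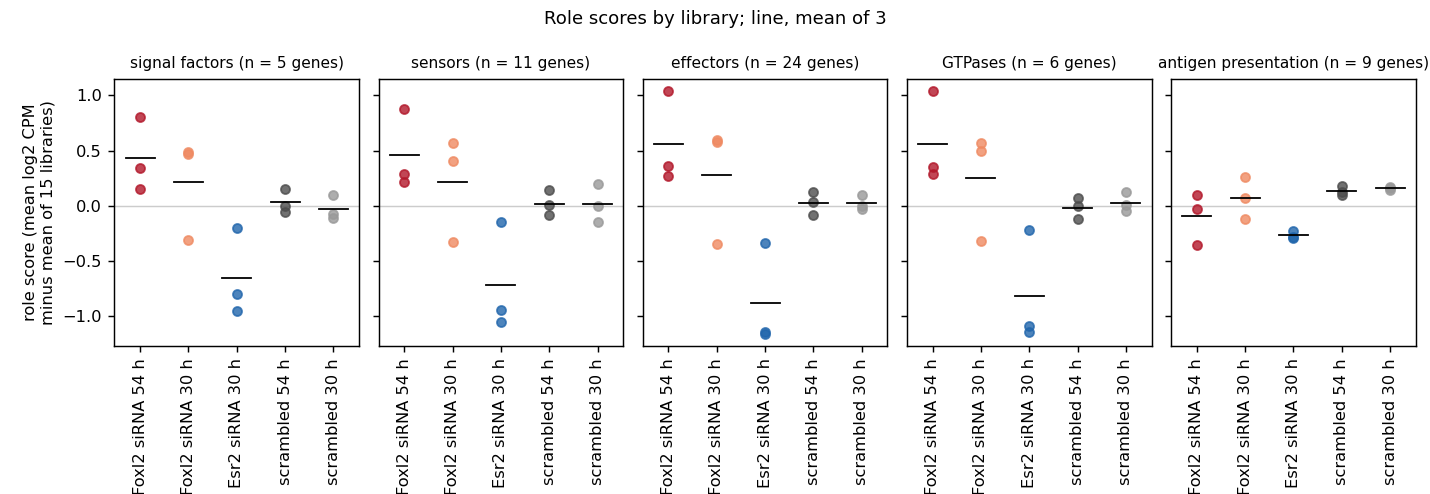
Role score of each library, the mean over the genes of a role of log2 CPM minus each gene's mean over the 15 libraries; points are libraries, lines the means of 3. The effector score is 0.27, 0.36 and 1.04 at 54 h after Foxl2 siRNA (replicates 1 to 3), -0.35, 0.60 and 0.58 at 30 h after Foxl2 siRNA, and -1.15, -0.33 and -1.16 after Esr2 siRNA, while the scrambled libraries lie between -0.08 and 0.13.

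The role scores show how far the roles moved together. In the effectors, the sensors and the GTPases, Esr2 siRNA replicates 1 and 3 had scores from -1.16 to -0.94 and replicate 2 from -0.33 to -0.15. The antigen presentation score was -0.29, -0.23 and -0.29 in replicates 1 to 3, with no such gap, and 0.14 to 0.17 with scrambled siRNA at 30 h. That score averages genes of opposite order. Psmb8, Psmb9, Tap1 and Tap2 were lowest in Esr2 siRNA replicate 2, whereas B2m, H2-K1, H2-D1, Nlrc5 and, by little, Tapbp were highest there. Across the 55 members the score was -0.95, -0.25 and -0.95 after Esr2 siRNA, -0.30, 0.49 and 0.47 after Foxl2 siRNA at 30 h, 0.15, 0.28 and 0.83 after Foxl2 siRNA at 54 h, and -0.05 to 0.14 in the 6 scrambled libraries. The scores are descriptions and were not tested.

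Set directly against each other at 30 h, Foxl2 siRNA and Esr2 siRNA gave the largest median difference of the comparisons made. Of 55 members 39 were higher after Foxl2 siRNA and 0 lower (70.9% called), against 11.1% of all genes tested higher and 9.34% lower (20.4% called in all). The median log2 difference was 0.86, against -0.003 for all genes tested, and 53 of 55 were positive (7388 of 14907 for all genes tested). Higher after Foxl2 siRNA were 18 of 24 effectors, 7 of 11 sensors, 4 of 5 signal factors, 4 of 6 GTPases and 6 of 9 antigen presentation genes. The medians were 1.01, 0.90, 0.86, 1.06 and 0.40 in that order of roles. In 22 members all Foxl2 siRNA libraries lay above all Esr2 siRNA ones (40%, against 16.9% of all genes tested) and in Irf1 all lay below.

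Ifit1 had the largest difference of the effectors. It had 15.4, 36.6 and 31.3 CPM after Foxl2 siRNA and 4.49, 8.98 and 2.48 CPM after Esr2 siRNA, with 16.7, 15 and 15.1 CPM in the scrambled libraries. Ifit1 was 5.25-fold higher after Foxl2 siRNA than after Esr2 siRNA (log2 2.39 ± 0.43, edgeR adjusted p = 0.00186). Ifit3 had 10.1, 23.1 and 15.1 CPM against 2.7, 5.85 and 2.3 CPM (log2 2.16 ± 0.44, edgeR adjusted p = 0.00438), and 9.31, 13.1 and 11.3 CPM with scrambled siRNA. The scrambled libraries thus sat between the siRNA groups or at the low end of the Foxl2 siRNA group. Ifit2 had 26.5, 27.9 and 24.4 CPM against 13.8, 17.5 and 13 CPM (log2 0.83 ± 0.14, edgeR adjusted p = 0.00115). Ifi44 had 20.7, 59.6 and 37.8 CPM against 5.1, 14.6 and 6.22 CPM (log2 2.20 ± 0.48, edgeR adjusted p = 0.00649). Isg15 had 21.9, 53.7 and 59.1 CPM against 7.34, 22.6 and 5.94 CPM, with overlap between Foxl2 siRNA replicate 1 and Esr2 siRNA replicate 2 (log2 1.91 ± 0.50, edgeR adjusted p = 0.0172). Isg15 stood at 31.5, 24.2 and 24.6 CPM with scrambled siRNA.

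Rsad2 had 13.4, 30.4 and 28.7 CPM after Foxl2 siRNA and 5.28, 13.8 and 3.92 CPM after Esr2 siRNA, and 15.9, 16.3 and 16.7 CPM with scrambled siRNA (log2 1.66 ± 0.41 between the siRNAs, edgeR adjusted p = 0.0125). Mx1 had 0.585, 1.3 and 1.02 CPM against 0.0994, 0.45 and 0.243 CPM (log2 1.90 ± 0.53, edgeR adjusted p = 0.0237), and its scrambled libraries stood at 0.516, 0.794 and 0.654 CPM. Parp9 and Dtx3l, which form a complex and are transcribed from neighbouring start sites on opposite strands, differed together. Parp9 had 33.7, 54.6 and 58.5 CPM against 21.4, 29.6 and 21.3 CPM (log2 1.02 ± 0.20, edgeR adjusted p = 0.00336), and Dtx3l had 27, 41.2 and 38.6 CPM against 17.2, 23.9 and 16.4 CPM (log2 0.89 ± 0.17, edgeR adjusted p = 0.00227). Their exons overlap, so part of the reads cannot be told apart without a known strand setting. Bst2 was also higher (log2 0.54 ± 0.15, edgeR adjusted p = 0.0253), whereas Samhd1 differed by 0.01 ± 0.07 (edgeR adjusted p = 0.937).

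Of the signal factors, Stat2 had 42.6, 72 and 61 CPM after Foxl2 siRNA and 30.2, 36.7 and 29.6 CPM after Esr2 siRNA, without overlap (log2 0.86 ± 0.17, edgeR adjusted p = 0.00286), and 45, 41.4 and 40.7 CPM with scrambled siRNA. Irf9 had 37.4, 57.6 and 56.4 CPM against 29.4, 40.4 and 27.2 CPM (log2 0.64 ± 0.19, edgeR adjusted p = 0.0278). Irf7 had 15.8, 33 and 39.1 CPM against 7.14, 19 and 6.05 CPM (log2 1.45 ± 0.40, edgeR adjusted p = 0.0221), and Usp18 had 16, 40.2 and 41.7 CPM against 8.08, 18 and 6.55 CPM (log2 1.59 ± 0.41, edgeR adjusted p = 0.0167). In Irf9, Irf7 and Usp18 the low Foxl2 siRNA replicate 1 overlapped the high Esr2 siRNA replicate 2. Irf1 ran the other way, with 13.3, 14.1 and 14.8 CPM after Foxl2 siRNA, 18.7, 15 and 17.7 CPM after Esr2 siRNA and 14, 14.5 and 14.7 CPM with scrambled siRNA. It did not pass between the siRNAs (log2 -0.28 ± 0.11, edgeR adjusted p = 0.0882).

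Among the sensors, Ddx58 had 68.7, 120 and 125 CPM after Foxl2 siRNA and 45.8, 71.1 and 43.9 CPM after Esr2 siRNA (log2 0.97 ± 0.23, edgeR adjusted p = 0.0106), and 98.1, 77.1 and 79 CPM with scrambled siRNA. Ifih1 had 15.6, 29.9 and 28.3 CPM against 9.99, 18.9 and 10.8 CPM (log2 0.90 ± 0.27, edgeR adjusted p = 0.0355). Oas2 had 0.767, 1.88 and 1.12 CPM against 0.215, 0.743 and 0.295 CPM (log2 1.60 ± 0.47, edgeR adjusted p = 0.0307). The kinase gene Eif2ak2, whose product PKR halts translation on double-stranded RNA, also differed without overlap (log2 0.77 ± 0.19, edgeR adjusted p = 0.0112). The sensors that did not pass were Dhx58, Adar, Oasl1 and Oasl2. The RNA editing enzyme gene Adar had the smallest difference of the sensors (log2 0.31 ± 0.13, edgeR adjusted p = 0.115).

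Gbp2 had 11.6, 24.5 and 17.2 CPM after Foxl2 siRNA and 4.02, 8.17 and 5.08 CPM after Esr2 siRNA (log2 1.63 ± 0.35, edgeR adjusted p = 0.00593), and 11.2, 13.5 and 13.6 CPM with scrambled siRNA. Irgm1 had 197, 239 and 296 CPM against 139, 290 and 117 CPM, a wide spread that did not pass (log2 0.42 ± 0.28, edgeR adjusted p = 0.308). In the antigen presentation genes the differences were smaller but mostly called. Tapbp had 154, 178 and 168 CPM after Foxl2 siRNA and 132, 134 and 132 CPM after Esr2 siRNA (log2 0.33 ± 0.07, edgeR adjusted p = 0.00529), and 142, 139 and 134 CPM with scrambled siRNA. Psmb8 was higher (log2 0.56 ± 0.14, edgeR adjusted p = 0.0125), with values given above. B2m had 236, 231 and 274 CPM after Foxl2 siRNA (log2 0.46 ± 0.11, edgeR adjusted p = 0.0139), and H2-K1 had 115, 127 and 145 CPM (log2 0.41 ± 0.13, edgeR adjusted p = 0.0439). Tap1 had 47.2, 56.4 and 60.8 CPM after Foxl2 siRNA and was called close to the threshold (log2 0.34 ± 0.11, edgeR adjusted p = 0.0466), as was Tap2 (log2 0.43 ± 0.14, edgeR adjusted p = 0.048). H2-D1 had 56.3, 46.8 and 65.5 CPM (log2 0.15 ± 0.15, edgeR adjusted p = 0.523) and Nlrc5 1.72, 2.29 and 2.54 CPM (log2 -0.08 ± 0.36, edgeR adjusted p = 0.896).

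**Figure D4:**
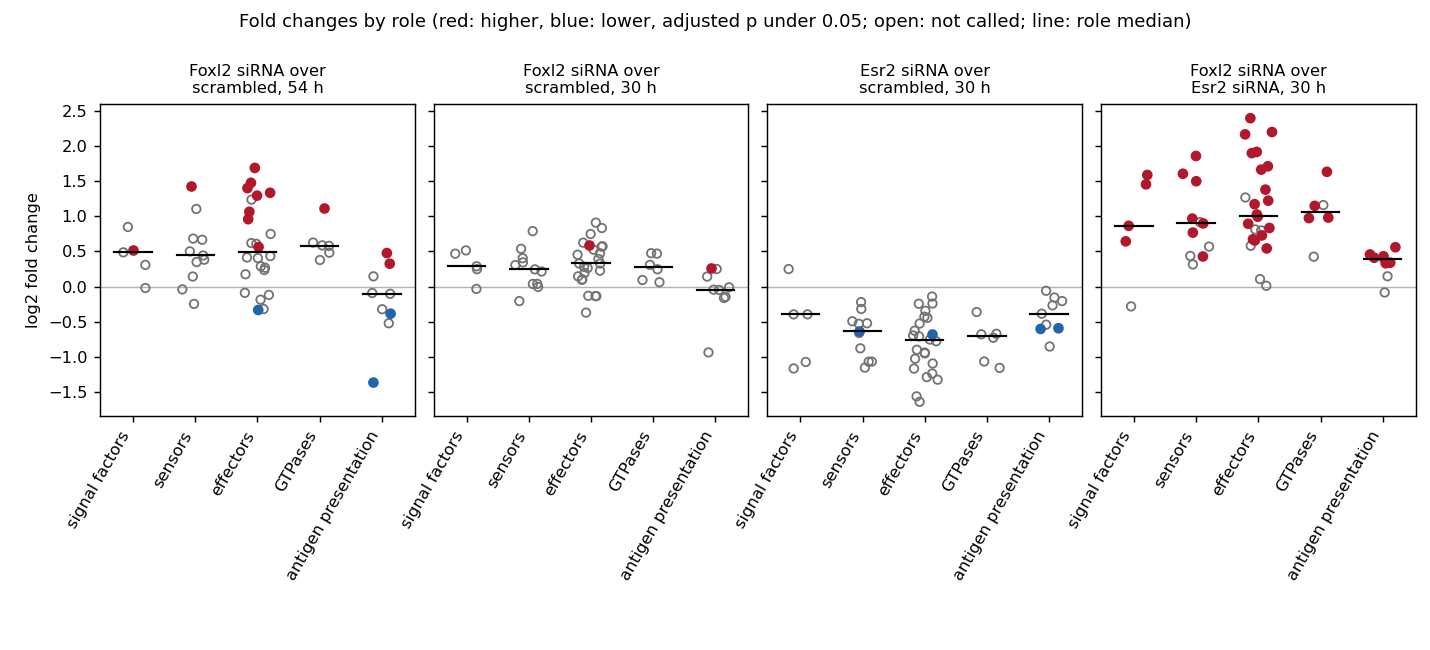
Log2 fold change of each tested member, by role, in 4 comparisons; red points are called higher and blue points lower at an adjusted p under 0.05, open points are not called, and lines are role medians. Nearly all open points of the Esr2 siRNA panel lie below 0, and the panel of Foxl2 siRNA over Esr2 siRNA has 39 red points and no blue ones.

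Leaving out libraries changed the count of this comparison. It was 45, 19 and 26 without Foxl2 siRNA replicate 1, 2 or 3, 11, 43 and 13 without Esr2 siRNA replicate 1, 2 or 3, and 12 when the 2 groups were fitted alone. Here too, Zbp1 can be among the members counted when a library was left out. Over the left-out libraries, 974 to 1816 of all genes were higher, against 1649 in the full fit. Stat2, Ifit1, Ifit2, Ifit3, Ifi44, Parp9, Dtx3l, Gbp2, Psmb8 and Tapbp were called in each of the 13 alternatives. The summed leukocyte markers were 4.46 to 7.47 CPM after Foxl2 siRNA, 4.36 to 4.84 CPM after Esr2 siRNA and 3.97 to 4.49 CPM with scrambled siRNA at 30 h. The surface epithelium markers summed to 626 to 688 CPM after Foxl2 siRNA, 480 to 487 CPM after Esr2 siRNA and 450 to 473 CPM with scrambled siRNA. The theca and stroma markers summed to 189, 627 and 392 CPM in replicates 1 to 3 after Foxl2 siRNA, 296, 130 and 476 CPM after Esr2 siRNA and 150, 500 and 366 CPM with scrambled siRNA. Within each group, the lowest sum thus fell in Foxl2 siRNA replicate 1, Esr2 siRNA replicate 2 and scrambled replicate 1. For most members, Foxl2 siRNA replicate 1 was the lowest library of its group. Esr2 siRNA replicate 2 and scrambled replicate 1 were the highest of theirs, in 49 and 39 of 55 members. The part of these cell types in the differences was not tested.

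No member passed the test for time in culture. Between scrambled siRNA at 54 h and at 30 h, 0 of 55 members were called higher or lower by edgeR, against 0% of all genes tested higher and 0.00671% lower (0.00671% called in all). An unadjusted p under 0.05 was found in 1 member and in 727 of 14907 genes tested. That member was Samhd1, with 107, 108 and 110 CPM at 54 h and 128, 124 and 123 CPM at 30 h (log2 -0.20 ± 0.07, edgeR adjusted p = 0.77). DESeq2 called 0 members, voom with quality weights called 2 higher and 1 lower, and a fit of these groups alone called Samhd1 lower. With the replicate number as a block, 0 members and 3 of all genes tested were called. The median log2 change was -0.01, and the members ranged from -0.35 to 0.28. Within the scrambled groups the libraries had an order as well: replicate 3 was the highest at 54 h in 45 of 55 members, and replicate 1 at 30 h in 39, against 22.4% and 40.9% of all genes tested.

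The Foxl2 siRNA change was more positive at 54 h than at 30 h in 43 of 55 members (7305 of 14907 genes tested). A smaller fall at 54 h also counts as more positive. The median difference was 0.15 on the log2 scale, but the test of the difference called 0 members by edgeR. Of all genes tested 0.00671% were called more positive at 54 h and 0% more negative (0.00671% in all). The lowest p was that of Ifit2, with a difference of 0.47 ± 0.19 (unadjusted p = 0.0292, edgeR adjusted p = 0.434), and it was the 1 member with an unadjusted p under 0.05, against 1510 of 14907 genes tested. DESeq2 also called 0, and voom with quality weights called 4 larger. Ifit1 differed by 0.85 ± 0.56 and Ifit3 by 0.95 ± 0.59 between the times, so a larger change at 54 h was not detectable gene by gene at this spread.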

How the data were processed

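Poly(A) RNA of 15 libraries was sequenced as single 75-base reads after a stranded TruSeq preparation, per the labels' protocols. Per the submitters' processing notes, the tools were TopHat2, bcl2fastq 2.15.0 and DESeq2, and the build was mm10. How reads were counted, with which annotation and strandedness, is not given in the sources used here. The authors deposited 1 file of raw read counts per library. The 92 ERCC spike-in rows (0.105 to 0.352% of counts) were left out, and 15 gene symbols turned into dates in 1 file were restored from their place in the others. Genes with enough counts (filterByExpr) were scaled by TMM, and all 15 libraries were fitted in 1 model of 5 group means with edgeR 4.0.16 (quasi-likelihood, 10 residual degrees of freedom, R 4.3.3), with Benjamini-Hochberg adjustment over 14907 genes. The code was tested on simulated data. Log levels add a count of 0.5, and role scores average log2 CPM centred on each gene's mean. Coordinates are from GENCODE M21. The members and all gene lists were chosen with earlier results of these data known. Per-library values are given for the 12 called members of lowest adjusted p and for 22 preset members; a few others are given where a result turns on them. Alternatives were RLE and upper-quartile scaling, no filter, DESeq2 1.42.0, voom with quality weights (limma 3.58.1), a replicate block, the compared groups alone and each library left out. The correlation of deviations from the group means exceeded 0.1 in all 3 same-numbered pairs between the scrambled groups (0.594, 0.443 and 0.121) and between no other groups, so by that limit the numbers were taken as pairs there alone. Some results are not reported here.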

Additional observations from a re-analysis of the deposited data

How the results depend on the processing

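Of 4620 alternatives run on 330 single-gene results, 4262 kept the side of the threshold, 199 lost a call and 159 gained one. Among results called in the full fit or in the alternative, 0 reversed direction. Changes of sign in results called in neither were not counted. The causes were not tested. With voom and quality weights, members called at 54 h after Foxl2 siRNA were 23 higher and 6 lower, and at 30 h 6 were lower with a median of -0.037, a reversed sign. After Esr2 siRNA 50 were lower and 1 higher, between the scrambled times 2 were higher and 1 lower, and Foxl2 siRNA against Esr2 siRNA gave 1 lower. The change over time in the Foxl2 siRNA effect had 4 called larger and a median of 0.47. With the compared groups alone, calls were 1 higher and 1 lower for Foxl2 siRNA at 30 h, 15 lower for Esr2 siRNA, 1 lower between scrambled times and 12 higher for Foxl2 siRNA against Esr2 siRNA. DESeq2 gave 14 lower for Esr2 siRNA. The share of all genes called with voom, DESeq2 or the compared groups alone is not given here. The antigen presentation score of scrambled siRNA at 30 h averaged 0.14 under upper-quartile scaling.

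With each library left out in turn, Foxl2 siRNA at 54 h had 3 to 16 members higher. The counts were 3, 6 and 7 without scrambled replicate 1, 2 or 3. Genes were filtered anew each time, so counts in this paragraph can include Zbp1. Foxl2 siRNA at 30 h had 0 to 3 higher, Esr2 siRNA 0 to 29 lower, Foxl2 siRNA against Esr2 siRNA 11 to 45 higher and 0 to 1 lower, and the change over time 0 to 1 larger. Of all genes, 437 to 1432 were higher for Foxl2 siRNA at 30 h, and 1 to 325 more positive for the change over time.

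With the replicate number as a block, members called 54 h after Foxl2 siRNA were 12 higher and 3 lower. At 30 h after it they were 2 higher and 0 lower. They were 0 and 7 for Esr2 siRNA, and 39 and 0 for Foxl2 siRNA against Esr2 siRNA. The share of all genes called with the block in these comparisons is not given here, so the counts have no background beside them. The 30 correlations of same-numbered libraries ran from -0.469 to 0.62, and 15 exceeded 0.1; outside the scrambled groups no set of 3 pairs did, and the block there is given for the count alone. Between the Foxl2 siRNA times, replicate 1 correlated with 1 (0.62), but 2 at 54 h with 3 at 30 h (0.617) and 3 with 2 (0.515); no pairing was built on this. With 3 libraries a group, an exact permutation test of a single value cannot give a two-sided p below 0.1. Depth limits Zbp1, which had 2 to 18 counts a library, and the ligand genes.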
